A study of Mus musculus with 12 samples.

Results

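Genes that make cholesterol, sense it, take it up and move it inside the cell were followed in liver RNA of mice labelled liver-null for Txnrd1 and of wild-type mice. The genes came from a list of 32 names of sterol enzymes, sterol regulators and sterol carriers, matched by symbol to the array's annotation. Of the 32 names, 27 were found on the array, and all 27 passed the filter on low values among the 8469 genes tested, out of 12393 genes on the array. Acat2, Insig1, Soat1 and Soat2 were not found by symbol among probe sets with 1 gene symbol, the only ones searched. Sc4mol is an older symbol of Msmo1, which was found. Each gene was read from 1 probe set, the brightest on average, and every value below is an expression value on the log2 scale or a difference between such values.

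The study held 12 male C57BL6/J mice aged 8 weeks, with 3 in each of 4 groups and 1 Affymetrix array per mouse. The groups were livers labelled liver-null after acetaminophen (APAP, 100 mg/kg by injection into the peritoneum), wild-type livers after APAP, livers labelled liver-null after saline, and wild-type livers after saline. Liver was taken 8 hours after the injection. In the livers labelled liver-null a conditional allele of Txnrd1, the cytosolic thioredoxin reductase, was disrupted by albCre, a Cre recombinase driven by the albumin promoter and so made in hepatocytes. The state of the allele in other liver cells was not measured here. The protocol text is the same on all 12 samples, and whether the wild-type mice carried the conditional allele or the Cre is not given in the sources used here.

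Cholesterol is built from acetyl-CoA through mevalonate, isoprenoid units, squalene and lanosterol. When sterol in the endoplasmic reticulum is low, SCAP carries the transcription factor SREBP-2 to the Golgi, where proteases release its active part, and genes of synthesis and uptake are transcribed together. When sterol is plentiful, INSIG proteins hold SCAP back in the endoplasmic reticulum. The liver is a main site of this synthesis and also takes cholesterol from lipoproteins and sends it into bile.

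Promoters of these genes are known for boxes bound by NF-Y and SP1 beside the sterol regulatory element, so the promoters of 6 genes that the results turn on are shown. RefSeq windows of assembly GRCm38.p6, reaching from 250 bases before to 50 bases after a start site, were available for 21 of the 27 genes, with 27 windows in all. Fdps, Fdft1, Sqle, Stard4, Npc1 and Scarb1 had none. The lines give the 180 bases before the start, 5′ to 3′ in the direction of the gene, with capitals for the NF-Y box CCAAT on either strand and, in Hmgcs1, for the sterol regulatory element core. Hmgcs1 lies at chr13:119690171-119690350 on the plus strand, Idi1 at chr13:8885426-8885605 on the plus strand, and Msmo1 at chr8:64733579-64733758 on the minus strand. Sc5d lies at chr9:42264301-42264480 on the minus strand, Dhcr7 at chr7:143830034-143830213 on the plus strand, and Insig2 at chr1:121332590-121332769 on the minus strand. Dhcr7 and Insig2 have 3 windows each, and the one with the most NF-Y boxes is given.

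Hmgcs1: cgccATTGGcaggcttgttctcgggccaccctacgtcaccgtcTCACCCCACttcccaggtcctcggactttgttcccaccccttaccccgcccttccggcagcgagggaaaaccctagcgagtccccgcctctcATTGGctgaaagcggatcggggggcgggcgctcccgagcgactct

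Idi1: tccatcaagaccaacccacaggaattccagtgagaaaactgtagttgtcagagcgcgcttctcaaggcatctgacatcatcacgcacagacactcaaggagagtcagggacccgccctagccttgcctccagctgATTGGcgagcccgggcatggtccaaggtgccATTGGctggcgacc

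Msmo1: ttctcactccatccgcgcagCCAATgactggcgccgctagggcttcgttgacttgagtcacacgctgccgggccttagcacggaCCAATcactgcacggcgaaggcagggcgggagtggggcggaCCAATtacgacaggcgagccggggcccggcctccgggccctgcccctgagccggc

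Sc5d: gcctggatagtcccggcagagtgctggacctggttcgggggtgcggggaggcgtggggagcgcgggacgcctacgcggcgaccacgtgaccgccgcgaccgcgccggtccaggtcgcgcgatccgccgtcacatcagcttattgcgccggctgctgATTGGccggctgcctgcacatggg

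Dhcr7: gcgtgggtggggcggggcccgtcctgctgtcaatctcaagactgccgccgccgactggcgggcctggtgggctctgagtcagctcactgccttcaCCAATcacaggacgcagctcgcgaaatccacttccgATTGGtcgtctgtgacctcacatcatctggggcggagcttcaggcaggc

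Insig2: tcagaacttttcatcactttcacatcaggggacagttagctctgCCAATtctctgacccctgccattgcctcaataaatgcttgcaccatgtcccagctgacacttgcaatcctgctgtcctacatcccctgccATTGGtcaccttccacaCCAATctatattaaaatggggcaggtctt

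The NF-Y box CCAAT, searched on both strands, was found in the windows of 19 of the 21 genes. It stood in 70.4% of their 27 windows, against 37.4% of the 32851 windows of all genes. Aacs and Scap had none, and 12 of the 27 windows (44.4%) held 2 or more, against 11.7% of all windows. In Dhcr7 the boxes began 85 and 49 bases before the start, in Idi1 45 and 14 bases before it, and in Msmo1 160, 96 and 55 bases before it. The GC box GGGCGG, the letters SP1 is known to bind, was in 77.8% of the windows of these genes, against 35.7% of all windows. The sterol regulatory element core TCACNCCAC was found in Hmgcs1 alone, 137 bases before its start, which is 3.7% of the windows against 1.24% of all windows. The classic SRE-1 element was in 0 of the 27 windows and in 0.0913% of all windows. The antioxidant response element TGACNNNGC, known as the site of NRF2, was found in Aacs, Dhcr7, Hsd17b7, Mvk and Pmvk, or 18.5% of the windows against 12.4% of all windows. The letters can overlap one another, and such a match describes the sequence only. Only exact matches to the given letters were counted, so a window without a match may still hold a variant of the element.

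Txnrd1 itself went against the label: its probe set above background lay between 10.26 and 10.58 in the 6 livers labelled liver-null, above the 6 wild-type livers at 9.43 to 9.81 (averaged log2 difference 0.75, SE 0.088, adjusted p = 0.000858, limma). Where that probe set lies relative to the deleted part was not analysed here, so every direction below is that of the livers labelled liver-null. The arrays also fell into a larger set of 8 and a smaller set of 4 that the labels do not name, seen from the upper quartile of their values (5.73 to 5.85 against 5.49 to 5.58). Each group had 1 array in the smaller set, namely mouse 17 of the APAP livers labelled liver-null, mouse 14 of the wild-type APAP livers, mouse 16 of the saline livers labelled liver-null and mouse 10 of the wild-type saline livers. Pairwise correlations between arrays across probe sets were 0.986 to 0.998.

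Averaged over saline and APAP, 8 of the 27 sterol genes were lower in the livers labelled liver-null and 0 were higher (limma, Benjamini-Hochberg adjusted p under 0.05 over all 8469 genes). Among all genes, 2.18% were called lower and 2.28% higher in that comparison. The 8 were Dhcr7, Stard4, Idi1, Aacs, Fdft1, Scarb1, Msmo1 and Sc5d, with log2 differences of -1.27 to -0.68, or 2.41-fold to 1.61-fold lower. They span the supply of acetyl units, the mevalonate steps, the late sterol steps and the handling of finished cholesterol. The difference was negative in 25 of the 27 genes, against 53.2% of all genes, with a median of -0.74 against -0.01. In bulk tissue such as this, fewer cells of a type and less RNA per cell cannot be told apart.

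At an unadjusted p under 0.05, 22 of the 27 genes (81.5%) differed in the averaged comparison, against 17% of all genes. For 8 of the 27 the 6 livers labelled liver-null all lay below the 6 wild-type livers, against 2.09% of all genes. These were Idi1, Mvk, Fdft1, Sc5d, Dhcr7, Nsdhl, Stard4 and Scarb1. With the array set as a covariate 17 were called, 16 lower and Insig2 higher, beside 882 called genes in place of 378. Within the sets the median of the 27 was -0.73 over the larger and -0.54 over the smaller.

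In saline alone, 3 of the 27 genes were called lower (Aacs, Stard4 and Sc5d) and 0 higher, against 0.272% and 0.366% of all genes. In 12 of the 27 all 3 livers labelled liver-null lay below all 3 wild-type livers, against 8.7% of all genes, and the median difference was -0.68 against -0.03 over all genes. After APAP, Stard4 was the 1 gene called lower and 0 were called higher, against 0.189% and 0.579% of all genes. The groups stood apart in the lower direction for 16 of the 27 genes after APAP, against 6.91% of all genes, with a median of -0.71 against -0.003. Both comparisons drew on the same fit, with 3 arrays per group. With the array set as a covariate, 6 of the 27 genes were lower and 1, Insig2, was higher in saline, beside 2.87% of all genes called, and 3 were lower after APAP, beside 2.18% of all genes called. Without wild-type saline mouse 8 or 9, or without mouse 4 of the saline livers labelled liver-null, the saline count was 1, beside 0.118%, 0.118% and 0.154% of all genes called. Without wild-type APAP mouse 14 or mouse 16 of the saline livers labelled liver-null the count after APAP was 2, beside 0.579% and 0.638% of all genes.

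**Figure D1:**
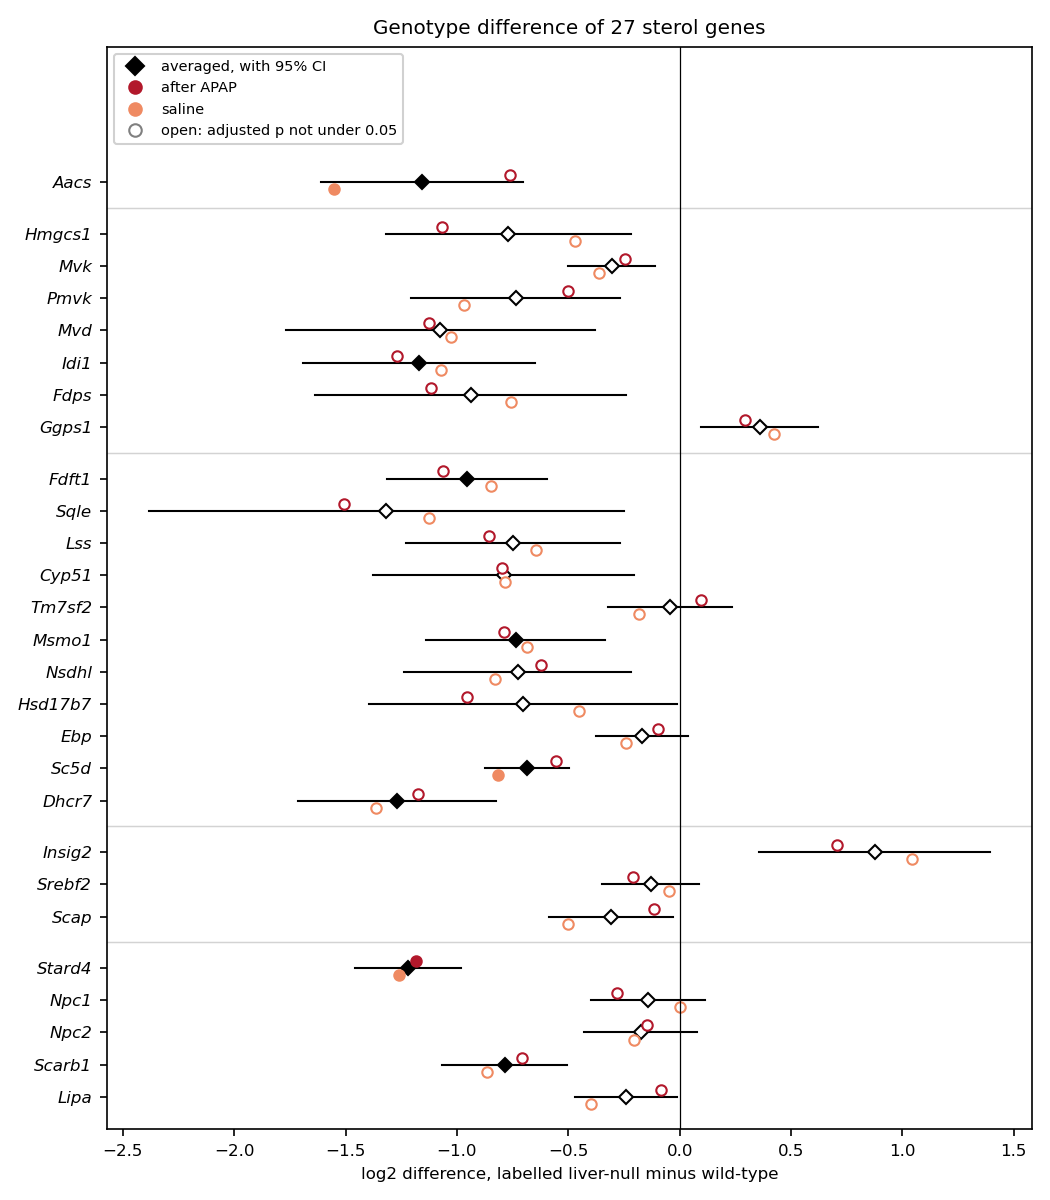
Log2 difference of each of the 27 sterol genes, labelled liver-null minus wild-type, averaged over both injections with its 95% confidence interval and for APAP and saline livers alone; filled symbols passed an adjusted p under 0.05. The points of 25 genes lie left of 0 in the averaged comparison, and those of Ggps1 and Insig2 lie right of it.

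Aacs, the cytosolic acetoacetyl-CoA synthetase that feeds ketone bodies into lipid and sterol synthesis, was lower in the livers labelled liver-null. It read 5.72, 5.78 and 6.19 in APAP livers labelled liver-null, against 6.47, 7.41 and 6.11 in wild-type APAP livers. In saline it read 5.46, 5.63 and 5.75 in livers labelled liver-null, against 7.52, 7.19 and 6.78 in wild-type livers. The saline groups did not overlap, while after APAP wild-type mouse 14 lay below mouse 17 of the livers labelled liver-null. The difference was -1.55 in saline (SE 0.29, adjusted p = 0.0401, limma) and -0.76 after APAP (SE 0.29, adjusted p = 0.402, limma). Averaged over both it was -1.16 (SE 0.21, adjusted p = 0.00975, limma), 2.23-fold lower. It was -1.50 within the larger set of arrays and -0.47 within the smaller. The saline call of Aacs was lost, at differences of -1.62 to -1.37, without any 1 of wild-type saline mice 8 and 9, of the 3 saline livers labelled liver-null, and of mice 2 and 3 of the APAP livers labelled liver-null. Another 2 probe sets of Aacs had averaged differences of -1.86 and -0.21, the second at a mean of 2.79 near the median of the arrays.

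Of the 7 genes that turn acetyl units into mevalonate and its isoprenoid products, 1 fell and 0 rose in the averaged comparison. The other 6 did not pass, and of all genes 2.18% fell and 2.28% rose. Idi1, which interconverts the activated isoprene units, fell by 1.17 on the log2 scale (SE 0.24, adjusted p = 0.0179, limma), 2.25-fold. It read 8.23, 9.30 and 8.96 in APAP livers labelled liver-null, against 10.80, 9.77 and 9.71 in wild-type APAP livers. Saline livers labelled liver-null had Idi1 at 9.0, 9.32 and 8.83, against 9.82, 10.58 and 9.97 in wild-type saline livers. No liver labelled liver-null reached the lowest wild-type liver. Idi1 missed the threshold over the 8 arrays of the larger set alone, at -1.28 (adjusted p = 0.0661, limma).

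Pmvk, phosphomevalonate kinase, read 4.80, 5.12 and 4.77 in APAP livers labelled liver-null, against 5.66, 5.55 and 4.98 in wild-type APAP livers. In saline it read 5.18, 5.31 and 4.45 in livers labelled liver-null, against 6.05, 6.47 and 5.33 in wild-type livers. In every group the array of the smaller set was the lowest of the 3. The averaged difference of Pmvk was -0.74 (SE 0.21, adjusted p = 0.0821, limma), and it passed with the array set as a covariate (adjusted p = 0.00392, limma) and without wild-type saline mouse 10 (-0.89, adjusted p = 0.0233, limma).

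Hmgcs1, which condenses acetyl units into HMG-CoA at the entry of the pathway, had an averaged difference of -0.77 (SE 0.25, adjusted p = 0.122, limma). It ranged from 9.10 to 10.31 in the 6 livers labelled liver-null, with a median of 10.07, and from 10.05 to 11.43 in the 6 wild-type livers, with a median of 10.60. The ranges overlapped, and all 3 further probe sets of Hmgcs1 had negative averaged differences, of -0.96 to -0.80. Mvd, the decarboxylase that yields the first isoprene unit, and Fdps, farnesyl diphosphate synthase, differed by -1.08 and -0.94 (adjusted p = 0.0870 and 0.138, limma). Mvk, mevalonate kinase, differed by a smaller -0.31 (SE 0.088, adjusted p = 0.0812, limma) without any overlap, at 3.27 to 3.59 in livers labelled liver-null against 3.63 to 3.92 in wild-type livers. Mvd and Mvk lay near the array medians of 2.91 to 2.99, where an array compresses differences. With the array set as a covariate Mvd, Fdps and Mvk passed (adjusted p = 0.0299, 0.0130 and 0.0410, limma) and Hmgcs1 did not (adjusted p = 0.0864, limma). Mvd also passed without wild-type APAP mouse 14 (-1.26, adjusted p = 0.0491, limma). Ggps1, the synthase of the branch towards geranylgeranyl groups and away from sterols, differed in the other direction by 0.36 (SE 0.12, adjusted p = 0.129, limma). Its mean of 3.26 also lay near the array medians. Ggps1 was called higher over the 8 arrays of the larger set, at 0.49, and with array weights. Another probe set of Ggps1 above the filter differed by 0.14, and those not above it by 0.18 and -0.01.

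**Figure D2:**
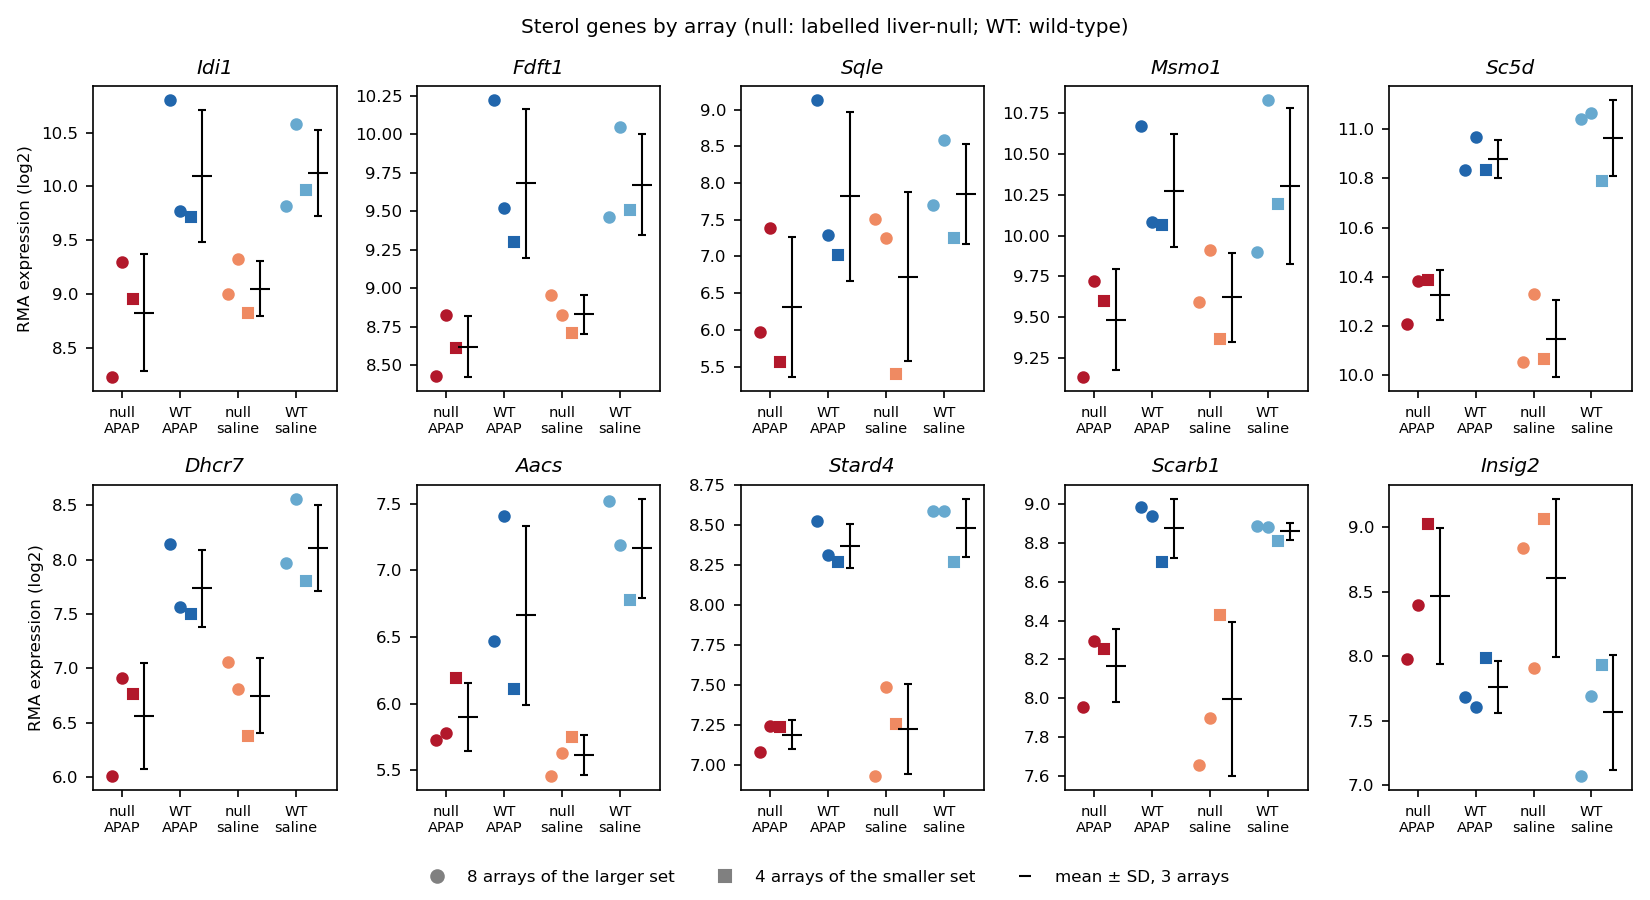
Expression on the log2 scale of 10 sterol genes in each of the 12 livers, with 1 point per array, squares for the 4 arrays of the smaller set and bars for the mean ± SD of 3 arrays. The 6 livers labelled liver-null lie below the 6 wild-type livers for Idi1, Fdft1, Sc5d, Dhcr7, Stard4 and Scarb1, while Insig2 runs the other way with overlap.

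Of the 11 genes between squalene synthesis and finished cholesterol, 4 fell, 0 rose and 7 did not pass in the averaged comparison. Of all genes, 2.18% fell and 2.28% rose there. In saline alone 1 of the 11 was called, and after APAP 0. Dhcr7, the last reductase of cholesterol synthesis, had the largest difference of the 4. It read 6.01, 6.91 and 6.76 in APAP livers labelled liver-null, against 8.15, 7.56 and 7.50 in wild-type APAP livers. Saline livers labelled liver-null had Dhcr7 at 7.05, 6.81 and 6.37, against 7.97, 8.56 and 7.81 in wild-type saline livers. The 2 genotypes did not overlap, and the averaged difference was -1.27 (SE 0.20, adjusted p = 0.00536, limma), or 2.41-fold lower.

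Fdft1, squalene synthase and the first enzyme committed to sterols, read 8.43, 8.82 and 8.61 in APAP livers labelled liver-null, against 10.23, 9.52 and 9.30 in wild-type APAP livers. Fdft1 read 8.96, 8.82 and 8.71 in saline livers labelled liver-null, against 9.46, 10.05 and 9.51 in wild-type saline livers. All 6 livers labelled liver-null were below all 6 wild-type livers, and Fdft1 fell by 0.95 on the log2 scale (SE 0.16, adjusted p = 0.00788, limma). A second expressed probe set of Fdft1 differed by -0.99.

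Sc5d, the sterol desaturase just before Dhcr7, had the tightest replicates of the late enzymes, with a within-group SD of 0.13. It read 10.21, 10.38 and 10.38 in APAP livers labelled liver-null, against 10.83, 10.97 and 10.83 in wild-type APAP livers. In saline it read 10.05, 10.33 and 10.07 in livers labelled liver-null, against 11.04, 11.06 and 10.79 in wild-type livers. The gap between the genotypes was wider than the spread within any group, at -0.68 averaged (SE 0.086, adjusted p = 0.00137, limma) and -0.82 in saline (SE 0.12, adjusted p = 0.0160, limma). Without wild-type saline mouse 8 or 9, or mouse 4 of the saline livers labelled liver-null, the saline value of Sc5d was -0.78 to -0.77 and not called. Its other probe set had a mean of 1.67 and was not above the filter, and averaging the 2 probe sets gave -0.42 in saline (adjusted p = 0.0725, limma).

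Msmo1, the sterol methyl oxidase that strips methyl groups from lanosterol products, read 9.13, 9.72 and 9.60 in APAP livers labelled liver-null, against 10.67, 10.08 and 10.07 in wild-type APAP livers. Msmo1 read 9.59, 9.91 and 9.36 in saline livers labelled liver-null, against 9.90, 10.83 and 10.19 in wild-type saline livers. Mouse 5 of the saline livers labelled liver-null and wild-type saline mouse 8 stood at about the same level, so the groups touched. The averaged difference was -0.74 (SE 0.18, adjusted p = 0.0460, limma), and the call was lost without any 1 array other than wild-type saline mouse 8, at -0.81 to -0.61.

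Sqle, squalene epoxidase and a slow step of the pathway, had the largest averaged difference of the 27 genes, -1.32, but did not pass (SE 0.49, adjusted p = 0.177, limma). It read 5.98, 7.38 and 5.57 in APAP livers labelled liver-null, against 9.13, 7.29 and 7.02 in wild-type APAP livers. In saline it read 7.51, 7.25 and 5.40 in livers labelled liver-null, against 7.70, 8.59 and 7.26 in wild-type livers. The livers within a group differed widely: its within-group SD of 1.00 was at percentile 99.6 of all genes tested. With the array set as a covariate Sqle passed (adjusted p = 0.0348, limma).

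The other late enzymes did not pass in the averaged comparison without the array set in the model. Lss, which closes the sterol ring, Cyp51, the lanosterol demethylase, Nsdhl, a dehydrogenase of the demethylation steps, and Hsd17b7, the ketoreductase of those steps, had differences of -0.75, -0.79, -0.73 and -0.70 (adjusted p = 0.0849, 0.136, 0.117 and 0.286, limma). Nsdhl lay between 6.82 and 7.88 in the 6 livers labelled liver-null and between 7.91 and 8.93 in the 6 wild-type livers, without overlap. Further probe sets above the filter differed by -0.94 for Lss, by -1.41 and -0.20 for Cyp51, and by -0.59 for Hsd17b7. With the array set as a covariate Lss, Cyp51 and Nsdhl passed (adjusted p = 0.0324, 0.0377 and 0.0265, limma) and Hsd17b7 did not (adjusted p = 0.122, limma). Lss also passed after quantile normalization (adjusted p = 0.0380, limma) and without wild-type APAP mouse 14 (-0.90, adjusted p = 0.0356, limma). Ebp, the sterol isomerase, and Tm7sf2, a sterol reductase whose step Lbr can also carry out, stood close to no difference, at -0.17 (95% interval -0.37 to 0.04) and -0.04 (95% interval -0.32 to 0.24). The sign of Tm7sf2 turned to 0.054 without mouse 16 and to 0.032 without mouse 17 of the livers labelled liver-null.

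Of the 3 sensing genes, 0 were called in either direction in the averaged comparison, beside 4.46% of all genes. Their differences were 0.87 for Insig2, -0.31 for Scap and -0.13 for Srebf2. Insig2, an endoplasmic reticulum protein that retains SCAP and is the INSIG form least dependent on SREBP, read 7.98, 8.40 and 9.02 in APAP livers labelled liver-null, against 7.68, 7.61 and 7.99 in wild-type APAP livers. In saline it read 8.84, 7.91 and 9.07 in livers labelled liver-null, against 7.07, 7.69 and 7.94 in wild-type livers. In each of the 4 groups the array of the smaller set had the highest Insig2 of the 3. The averaged difference was 0.87 (SE 0.24, adjusted p = 0.0640, limma), the largest positive one of the 27. It passed with the array set as a covariate (adjusted p = 0.00979, limma) and without mouse 5 of the saline livers labelled liver-null (1.05, adjusted p = 0.0257, limma). Both other probe sets of Insig2 also had positive averaged differences, of 0.61 and 0.45.

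Scap, the escort of SREBP, read 8.50, 8.30 and 8.30 in APAP livers labelled liver-null, against 8.45, 8.59 and 8.40 in wild-type APAP livers. In saline Scap read 8.49, 8.11 and 8.09 in livers labelled liver-null, against 8.97, 8.92 and 8.30 in wild-type livers. The groups overlapped in both injections. Its averaged difference was -0.31 (SE 0.13, adjusted p = 0.232, limma), and it passed without wild-type saline mouse 10 (-0.42, adjusted p = 0.0370, limma). Srebf2, the gene of SREBP-2, differed by -0.13, with a 95% interval of -0.35 to 0.09.

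Of the 5 genes of uptake, lysosomal exit and transport, 2 fell, 0 rose and 3 did not pass in the averaged comparison. Of all genes, 2.18% fell and 2.28% rose there. Stard4, a cytosolic protein that shuttles cholesterol between membranes, had the smallest adjusted p of the 27 genes. It read 7.08, 7.24 and 7.24 in APAP livers labelled liver-null, against 8.53, 8.31 and 8.27 in wild-type APAP livers. Saline livers labelled liver-null had Stard4 at 6.93, 7.48 and 7.26, against 8.59, 8.59 and 8.27 in wild-type saline livers. The highest liver labelled liver-null stood well below the lowest wild-type liver, at 7.48 against 8.27. Stard4 fell by 1.26 in saline (SE 0.15, adjusted p = 0.00681, limma) and by 1.18 after APAP (SE 0.15, adjusted p = 0.00447, limma) on the log2 scale. Averaged, the difference was -1.22 (SE 0.11, adjusted p = 0.000223, limma), 2.33-fold lower, and it was -1.32 and -1.03 within the larger and the smaller set. A second probe set of Stard4 differed by -1.34, but its genotypes overlapped. It reached 5.13 in livers labelled liver-null and fell to 5.08 in wild-type livers. The saline call was lost in a fit to the 6 saline arrays alone (adjusted p = 0.0549, limma).

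Scarb1, the receptor that takes cholesteryl ester from high-density lipoprotein, read 7.95, 8.29 and 8.26 in APAP livers labelled liver-null, against 8.99, 8.94 and 8.70 in wild-type APAP livers. In saline Scarb1 read 7.66, 7.90 and 8.43 in livers labelled liver-null, against 8.89, 8.88 and 8.81 in wild-type livers. The genotypes did not overlap, and the averaged difference was -0.79 (SE 0.13, adjusted p = 0.00583, limma), or 1.72-fold lower. It was -0.97 within the larger set and -0.41 within the smaller, and both other probe sets of Scarb1 differed by -0.88 and -0.83.

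The lysosomal genes showed smaller differences. Npc1, the membrane protein that exports cholesterol from lysosomes, read 7.68, 7.62 and 7.63 in APAP livers labelled liver-null, against 7.80, 8.02 and 7.96 in wild-type APAP livers. In saline Npc1 read 7.97, 7.52 and 7.50 in livers labelled liver-null, against 7.34, 7.93 and 7.72 in wild-type livers. The saline groups overlapped and the APAP groups did not, and the averaged difference was -0.14 (adjusted p = 0.634, limma). Npc2, which hands cholesterol to Npc1, and Lipa, the lysosomal acid lipase, differed by -0.18 and -0.24 (adjusted p = 0.511 and 0.265, limma).

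The order of the livers within a group was shared by many enzymes, though not in every group. Of the 18 enzymes from Hmgcs1 to Dhcr7, 11 were highest of their 3 livers in mouse 3 of the APAP livers labelled liver-null, against 35.8% of all genes, and 17 in wild-type APAP mouse 12, against 43.5% of all genes. In the saline livers labelled liver-null the highest place was split, with 9 in mouse 4 and 8 in mouse 5, against 43.3% and 34.7% of all genes. In the wild-type saline livers 16 of the 18 were highest in mouse 9, against 36.7% of all genes. The arrays of the smaller set were the lowest of their group for 55.2% to 63.7% of all genes. The lowest place fell to mouse 16 of the saline livers labelled liver-null and to wild-type APAP mouse 14 for 16 of the 18 enzymes each, against 55.2% and 58% of all genes. It was shared, at 9 of the 18 each, by mice 2 and 17 of the APAP livers labelled liver-null (24.1% and 56.1% of all genes) and by wild-type saline mice 8 and 10 (22.7% and 63.7% of all genes). The labelling and RNA quality of an array are shared by all its genes, and their part in this order was not tested.

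The mean deviation of the 27 genes from their 12-array means placed the genotypes on either side of a narrow gap. It was -0.48, -0.16 and -0.38 in APAP livers labelled liver-null and 0.61, 0.18 and -0.02 in wild-type APAP livers. In saline it was -0.12, -0.15 and -0.50 in livers labelled liver-null and 0.21, 0.65 and 0.15 in wild-type livers. The wild-type APAP mouse 14 at -0.02 was the lowest wild-type liver, and mouse 4 at -0.12 the highest liver labelled liver-null. The median within-group SD of the 27 genes was 0.36, against 0.21 over all genes tested. Stard4, Mvk and Sc5d had within-group SDs of 0.19, 0.13 and 0.13, and Fdps, Mvd and Hsd17b7 had 0.65, 0.64 and 0.64.

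**Figure D3:**
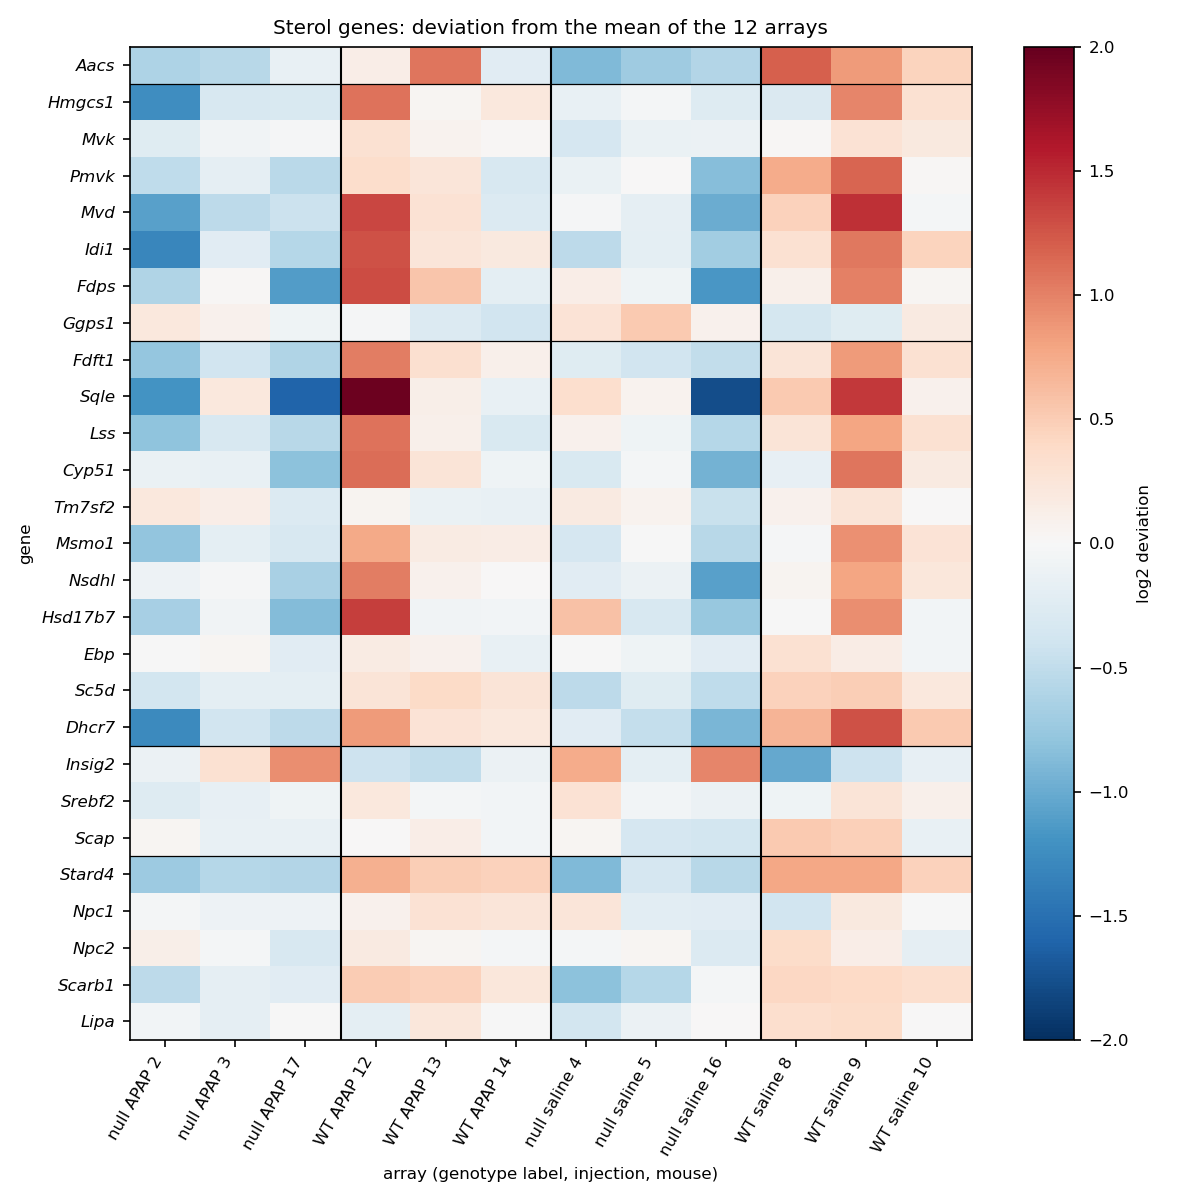
Deviation of each sterol gene from its mean over the 12 arrays, on the log2 scale, with genes in rows and arrays in columns. Most enzymes are high together in wild-type APAP mouse 12 and wild-type saline mouse 9 and low together in mouse 16 of the saline livers and mouse 2 of the APAP livers labelled liver-null. Insig2 has the opposite sign to most enzymes in all of these but mouse 2.

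APAP against saline gave no call among the 27 genes. In livers labelled liver-null, in wild-type livers and in the interaction of genotype and APAP, limma called 0 of the 27 genes and 0% of the 8469 genes. At an unadjusted p under 0.05 it found 0 of the 27 genes in each, beside 59, 143 and 109 of all genes. The median difference of the 27 genes was -0.08 in livers labelled liver-null and -0.05 in wild-type livers, and the median interaction was -0.02. The 95% interval of a gene reached 0.57 on either side at the median and 1.51 for Sqle, and that of the interaction reached 0.81 and 2.13. With 3 livers per group, what could be detected differed from gene to gene with these intervals.

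Within each of the gene groups above, the largest APAP difference, read from the brightest probe set of each gene, had an interval that included 0. Pmvk differed by -0.55 in wild-type livers (95% interval -1.21 to 0.11) and by -0.08 in livers labelled liver-null. Hmgcs1 read 9.10, 10.03 and 10.04 in APAP livers labelled liver-null, against 10.20, 10.31 and 10.09 in saline livers labelled liver-null. These 2 groups did not overlap (log2 difference -0.47, adjusted p = 1.00, limma), as for 1.71% of all genes in that direction. Sqle differed by -0.41 in livers labelled liver-null, Scap by -0.25 and Npc1 by 0.27 in wild-type livers. Aacs differed by 0.29 in livers labelled liver-null and by -0.50 in wild-type livers, and the test of that difference gave an interaction of 0.79 (SE 0.42, adjusted p = 0.999, limma). Further probe sets were not tested singly, and some differed more. Those of Aacs differed by -0.99 and -0.09 in wild-type livers and by 0.22 and 0.0005 in livers labelled liver-null. The second of Stard4 differed by 0.61 in wild-type livers, against -0.11 for the brightest. Those of Hmgcs1 differed by -0.62 to -0.50 in livers labelled liver-null.

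**Figure D4:**
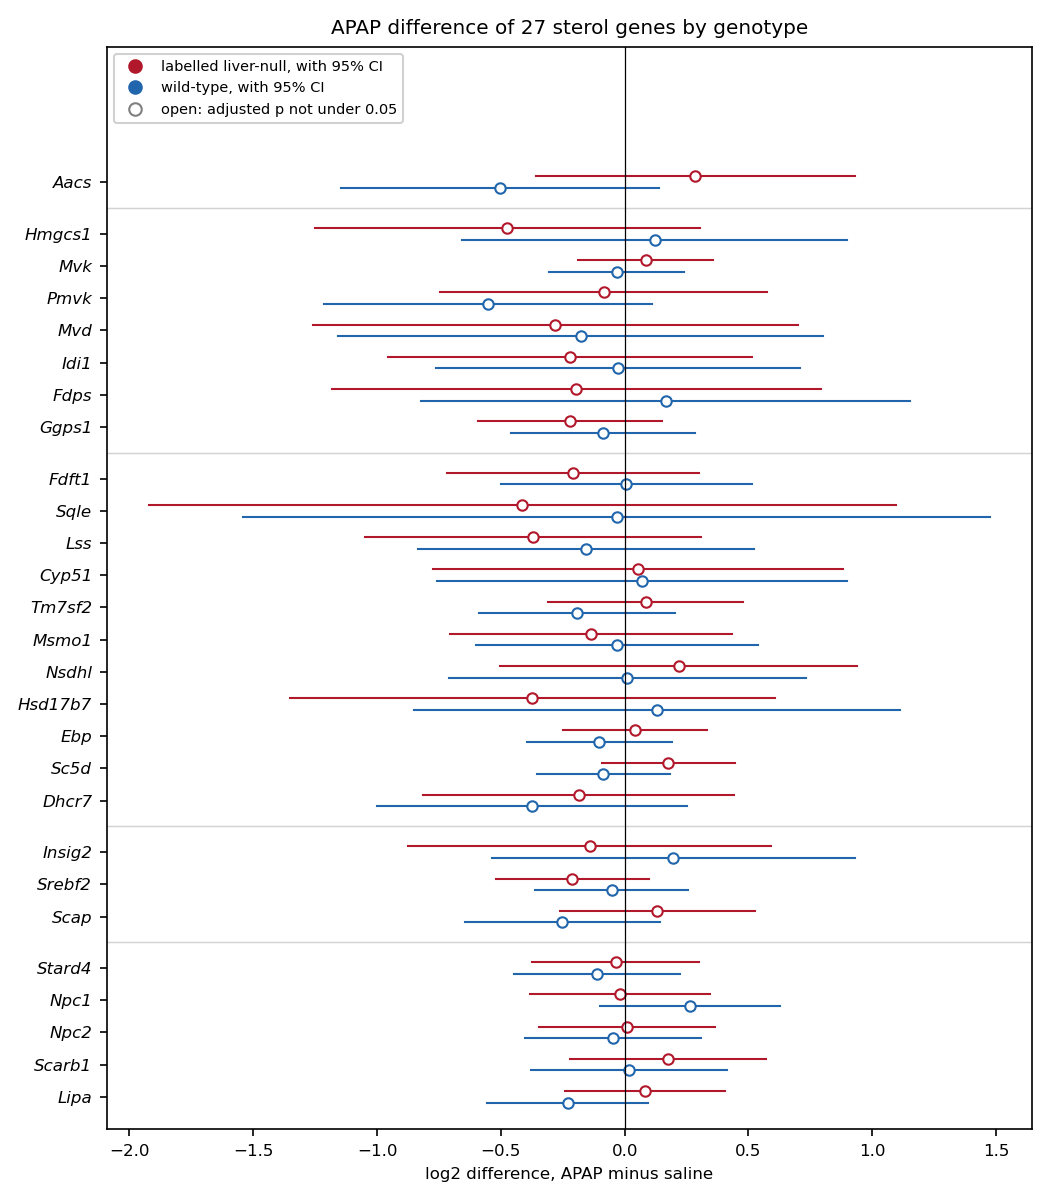
Log2 difference of the 27 sterol genes, APAP minus saline, with 95% confidence intervals, in livers labelled liver-null and in wild-type livers. All symbols are open, since 0 genes passed an adjusted p under 0.05, and every interval includes 0.

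Neighbouring pathways were counted in the same averaged comparison, where 4.46% of all genes were called. Of 11 tested genes of SREBP processing and sterol-regulated degradation, 1 was lower and 1 higher. Rnf145, an E3 ligase of the endoplasmic reticulum that acts on SCAP, averaged 6.50 ± 0.26 in livers labelled liver-null and 7.56 ± 0.57 in wild-type livers (SD, n = 6 each; log2 difference -1.06, SE 0.23, adjusted p = 0.0252, limma). Pgrmc1, a haem-binding membrane protein that binds SCAP and INSIG, averaged 12.51 ± 0.04 in livers labelled liver-null and 12.22 ± 0.05 in wild-type livers (SD, n = 6 each; difference 0.29, SE 0.065, adjusted p = 0.0292, limma). Of 17 genes of the isoprenoid branch to dolichol, ubiquinone and prenyl groups, Coq7, a hydroxylase of ubiquinone synthesis, was higher by 0.49 (SE 0.077, adjusted p = 0.00536, limma) and 0 were lower.

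Among 13 tested genes of oxysterols, LXR and sterol efflux 0 were called (median -0.04), and among 17 intracellular sterol carriers 0 were called (median -0.001). Among 17 genes of lipoprotein assembly and lipoprotein receptors 0 were called, and 15 of the 17 differences were negative, with a median of -0.20. Of 12 other genes known to be raised by SREBP-2 in mouse liver, 4 fell and 1 rose. Elovl6, a fatty acid elongase, fell by 2.35 on the log2 scale (SE 0.40, adjusted p = 0.00703, limma), and averaged 6.16 ± 0.88 in livers labelled liver-null and 8.51 ± 0.62 in wild-type livers (SD, n = 6 each). The desaturases Fads2 and Fads1 fell by 1.16 and 0.81 (adjusted p = 0.00453 and 0.000827, limma), and Rdh11, a retinol dehydrogenase, fell by 0.96 (adjusted p = 0.0179, limma). These fatty acid genes are known to respond to SREBP-1 as well. Me1, malic enzyme and a source of NADPH, rose by 1.26 (SE 0.21, adjusted p = 0.00686, limma).

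Markers of the cells that a liver sample holds were read beside these results, as summed linear values. All 8 hepatocyte markers on the array were above the filter and 0 of them were called, with a median log2 difference of -0.05. Their sum was 63340 to 63840 in APAP livers labelled liver-null against 65310 to 67160 in wild-type APAP livers, which did not overlap. In saline livers labelled liver-null it was 60950 to 65090, against an overlapping 63690 to 68690 in wild-type saline livers. Apoa1 had the largest difference of the 8, at -0.20 (adjusted p = 0.138, limma). It read 13.52 to 13.67 in livers labelled liver-null and 13.73 to 13.90 in wild-type livers. The other hepatocyte markers ran from -0.09 for Cps1 to 0.03 for Cyp2e1. The 10 macrophage markers and the 9 endothelial markers on the array had overlapping sums and 0 calls, and of 9 lymphocyte and neutrophil markers on the array 5 were above the filter and 0 were called. Of 10 stellate and fibroblast markers, 1 was called lower (Pdgfrb, log2 difference -0.62, adjusted p = 0.0248, limma). The 10 had a median log2 difference of -0.22, from -0.65 for Col3a1 to 0.01 for Ngfr. Their sums overlapped, at 887 to 1086 in APAP livers labelled liver-null against 1027 to 1213 in wild-type APAP livers, and 923 to 1048 in saline livers labelled liver-null against 1027 to 1302 in wild-type saline livers. Of 8 markers of pancreas, fat and muscle on the array, 3 were above the filter, and Cela1, a pancreatic elastase, was lower (5.91 to 6.33 in livers labelled liver-null against 7.39 to 8.41 in wild-type livers, log2 difference -1.77, adjusted p = 0.000223, limma). Cpa1, Adipoq, Ckm, Myh4 and Acta1 were not above the filter, and the sums of these 8 did not overlap between genotypes. They were 94.8 to 112 in APAP livers labelled liver-null against 199 to 329 in wild-type APAP livers, and 92.6 to 110 in saline livers labelled liver-null against 241 to 372 in wild-type saline livers. The gap was that of Cela1: the other 2 above the filter, Prss2 and Cela2a, differed by 0.11 and -0.14 (adjusted p = 0.627 and 0.628, limma). Of 5 cholangiocyte markers on the array, Krt7, Krt19 and Cldn7 were not above the filter. The other 2, Sox9 and Epcam, differed by -0.11 and 0.09 (adjusted p = 0.592 and 0.662, limma). The cholangiocyte sums overlapped after APAP, at 25.6 to 27.7 in livers labelled liver-null against 24.9 to 26.2 in wild-type livers. In saline they did not, at 24.6 to 25.4 in livers labelled liver-null against 26.0 to 26.3 in wild-type livers. The adrenal genes Cyp11a1, Star and Cyp21a1 were not above the filter. The part of the hepatocyte and stellate markers and of Cela1 in the sterol results was not tested.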

How the data were processed

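RNA from 12 mouse livers was read on Affymetrix arrays. The authors deposited log2 expression values made with RMA, per the submitters' processing notes. Its version and settings are not given in these sources. No further normalization was applied. Arrays have no read depth, so the number of arrays limits the precision. Gene names came from the platform annotation: 20380 of 22690 probe sets had 1 symbol and 691 had several. The brightest probe set on average, among those with 1 symbol, stood for a gene, which was tested where it exceeded the 40th percentile of an array (2.42 to 2.48) on at least 3 of 12 arrays. A mean for each of the 4 groups was fitted with limma 3.58.1 in R 4.3.3, with 8 residual and 3.43 prior degrees of freedom. P-values are two-sided and adjusted over 8469 genes, SE is the standard error of a log2 difference, and intervals are at 95%.

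The mice were separate animals and no replicate number was shared between groups. At most 0.00881% of values were equal in any pair of arrays. The genes, the neighbouring lists and the tests were chosen with earlier results of these data known, so their counts are descriptions. Values in every array are given for genes called in any comparison and, within each role group, for the genes with the largest averaged genotype difference and the largest APAP difference. Hmgcs1 in APAP was added after its values were seen. Of a neighbouring list, called genes are named, up to 4 in each direction. On simulated data of 8469 genes for the averaged comparison, the fit recovered 91% of genes changed by 1 and 97% of genes changed by 2 on the log2 scale, with 4 false calls. The changed genes were drawn at random from all genes tested, with independent noise and no array sets. Their recovery is thus not that of the 27 sterol genes, whose median within-group SD was 0.36 against 0.21. Alternatives were the array set as a covariate, each array set alone, array weights, quantile normalization, the mean of probe sets, no filter, the 6 arrays of a comparison, and each array left out.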

Additional observations from a re-analysis of the deposited data

How the results depend on the processing

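No paired analysis was possible because no replicate number is shared between groups. In saline, all genes called numbered 54, against 243 with the array set as a covariate, 117 in the 8 arrays of the larger set, 1323 with array weights, 104 after quantile normalization and 19 in the 6 saline arrays; after APAP 65, against 185 with the covariate, 210 with weights and 39 in the 6 arrays; averaged 378, against 882, 1409 with weights and 590 after quantile normalization; and APAP against saline in livers labelled liver-null 0, against 1 in the larger set. Sterol genes called in saline numbered 3, against 7 with the covariate, 5 in the larger set, 18 with weights and 1 in the 6 arrays; after APAP 1, against 3 with the covariate, 5 with weights and 3 after quantile normalization; averaged 8, against 17 with the covariate and 21 with weights. Some of these calls were in the higher direction. Averaged, Insig2 was higher with the covariate, Ggps1 and Insig2 were higher with weights, and Ggps1 was higher in the larger set, beside 8 lower there. In saline, Insig2 was higher with the covariate and Ggps1 with weights. The weights ran from 0.363 to 4.63 and favoured 1 array in each group, so the fit with weights rests on few livers. The median of the sterol genes after APAP was -0.34 in the 4 arrays of the smaller set, and their median interaction 0.27 there, with 1 array per group and no test. Leaving out 1 array at a time, genes called ran from 10 to 92 in saline, from 21 to 60 after APAP and from 208 to 416 averaged, and sterol genes called from 1 to 4, from 1 to 2 and from 7 to 9. Averaged, Stard4, Dhcr7, Aacs, Fdft1, Scarb1 and Sc5d kept their calls in all 18 alternatives with a test, and Msmo1 lost its call in 13, including no filter on low values (adjusted p = 0.0584, limma). The averaged difference of Tm7sf2 changed sign to 0.082 in the larger set, and ran from -0.10 to 0.054 with 1 array left out, positive without mouse 16 or 17 of the livers labelled liver-null. The cause of these changes was not tested.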
